A study of Homo sapiens with 6 samples.

Results

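The USP genes encode ubiquitin-specific proteases, the largest family of human deubiquitinases, and were taken as every protein-coding gene whose symbol is USP followed by a number and an optional letter, without the USP17L copies and the genes of the Y chromosome. The rule found 51 genes among the 60604 of the count table, and 45 had enough counts to be tested. RNA had been sequenced from MIA PaCa-2, a human pancreatic carcinoma cell line labelled as wild type, with 3 libraries of cells given 12.5 µg/ml BP (black phosphorus, a layered form of elemental phosphorus) and 3 of cells given the same dose of BP together with 10 mg/ml Huaier, an extract of the medicinal fungus Trametes robiniophila. Every library therefore carried BP, so the comparison asks what the addition of Huaier changed. The sources used here do not give the duration of treatment, and libraries of untreated cells or of Huaier alone were not analysed here. The labels do not say whether replicate libraries are separate cultures, so p-values measure a spread between libraries that may be technical.

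Ubiquitin is a small protein that is activated by an E1 enzyme, passed to an E2 conjugating enzyme and attached to a target protein with the help of an E3 ligase. Chains of ubiquitin can send a protein to the proteasome, route a receptor to the lysosome, mark damaged mitochondria for autophagy or change the activity of chromatin and signalling proteins. USP enzymes are cysteine proteases that cut ubiquitin off again, and each acts on its own set of targets. Examples are USP7, which acts on MDM2 and p53, USP22 of the SAGA coactivator complex, USP14 of the proteasome, and USP30 and USP8, which are known from mitophagy.

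Library totals were 15657593 to 17036565 counts, of which USP genes took 0.244% to 0.333%. Levels are given as CPM, the counts of a gene relative to the size of its library, with library sizes scaled by TMM, and 3 counts, taken as the floor of detection, came to 0.160 to 0.222 CPM. The library labelled BP+Huaier 3 stood apart from the other two treated alike. The first principal component (72.0% of the variance) placed it at 11.9, against 69.2 for BP+Huaier 1, 70.3 for BP+Huaier 2 and -53.3 to -46.5 for the BP libraries. The cells had the keratins KRT8, KRT18 and KRT19 and the mesenchymal gene VIM, while KRT7, EPCAM, CDH1, PRSS1, PTPRC, CD3E, DCN and LUM were at or near 0. The summed level of the leukocyte markers was 40.9 to 45.5 CPM in BP and 21.3 to 34.1 CPM in BP+Huaier, nearly all of it CD14. The endothelial sum, nearly all CDH5, was 17.6 to 21.1 and 12.1 to 14.7 CPM, and the fibroblast sum 8.13 to 8.92 and 12.7 to 14.4 CPM, with COL1A1 at a mean of 1.34 and 5.92 CPM and COL3A1 at 7.11 and 7.07 CPM. The epithelial sum was 1713 to 1882 CPM in BP and 1674 to 3403 CPM in BP+Huaier, with KRT18 at a mean of 450.5 and 771 CPM and KRT19 at 221 and 454 CPM. KRT8 had means of 942 and 1328.5 CPM and SOX9 of 111 and 144 CPM, while MUC1 went the other way, at 52.8 and 33.3 CPM. In BP+Huaier 3 KRT18 was at 483 CPM, near the BP libraries, and KRT8 at 769 CPM, below all of them. The part of these marker levels in the results was not tested.

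With all 6 libraries, 9 USP genes differed between the groups, in both directions. USP40, USP34 and USP8 fell, and USP2, USP39, USP36, USP31, USP21 and USP3 rose. These were 9 of the 45 tested genes (20%), called at a Benjamini-Hochberg adjusted p under 0.05 in edgeR's quasi-likelihood test, where 29.3% of all 15022 tested genes were called. The 6 that rose were 13.3% of the tested USP genes against 14.4% of all genes, and the 3 that fell were 6.67% against 15.0%. Among the 12459 tested protein-coding genes 16.6% rose and 12.8% fell. With all libraries the share of USP calls was thus below the background in total and for falls, and close to it for rises. This turned with BP+Huaier 3 left out, where edgeR called 36 of the 45 genes. Then 24 were lower (53.3%, against 31.0% of all tested genes) and 12 were higher (26.7%, against 28.8%). In 16 USP genes (35.6%) the groups did not overlap, against 46.8% of all tested genes. The median log2 fold change of the 45 was -0.17, beside -0.02 over all tested genes and 0.03 over protein-coding genes, and 30 of the 45 had a negative value. In bulk libraries fewer cells of a kind and less RNA per cell cannot be told apart.

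The summed level of the family depended on the scaling. As a share of raw counts USP genes made up 0.321%, 0.333% and 0.311% in BP and 0.253%, 0.244% and 0.320% in BP+Huaier, so BP+Huaier 1 and 2 lay below every BP library and BP+Huaier 3 lay among them. The TMM factors of these 2 low libraries were 0.850 and 0.857, against 1.04 to 1.11 in the others. After TMM scaling, summed over all members, the level was 2916, 3022 and 2876 CPM in the BP libraries and 2983, 2845 and 3087 CPM in the BP+Huaier libraries, and these ranges overlapped. The means were 2938 ± 75.6 CPM and 2972 ± 121 CPM (SD, n = 3 each).

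**Figure D1:**
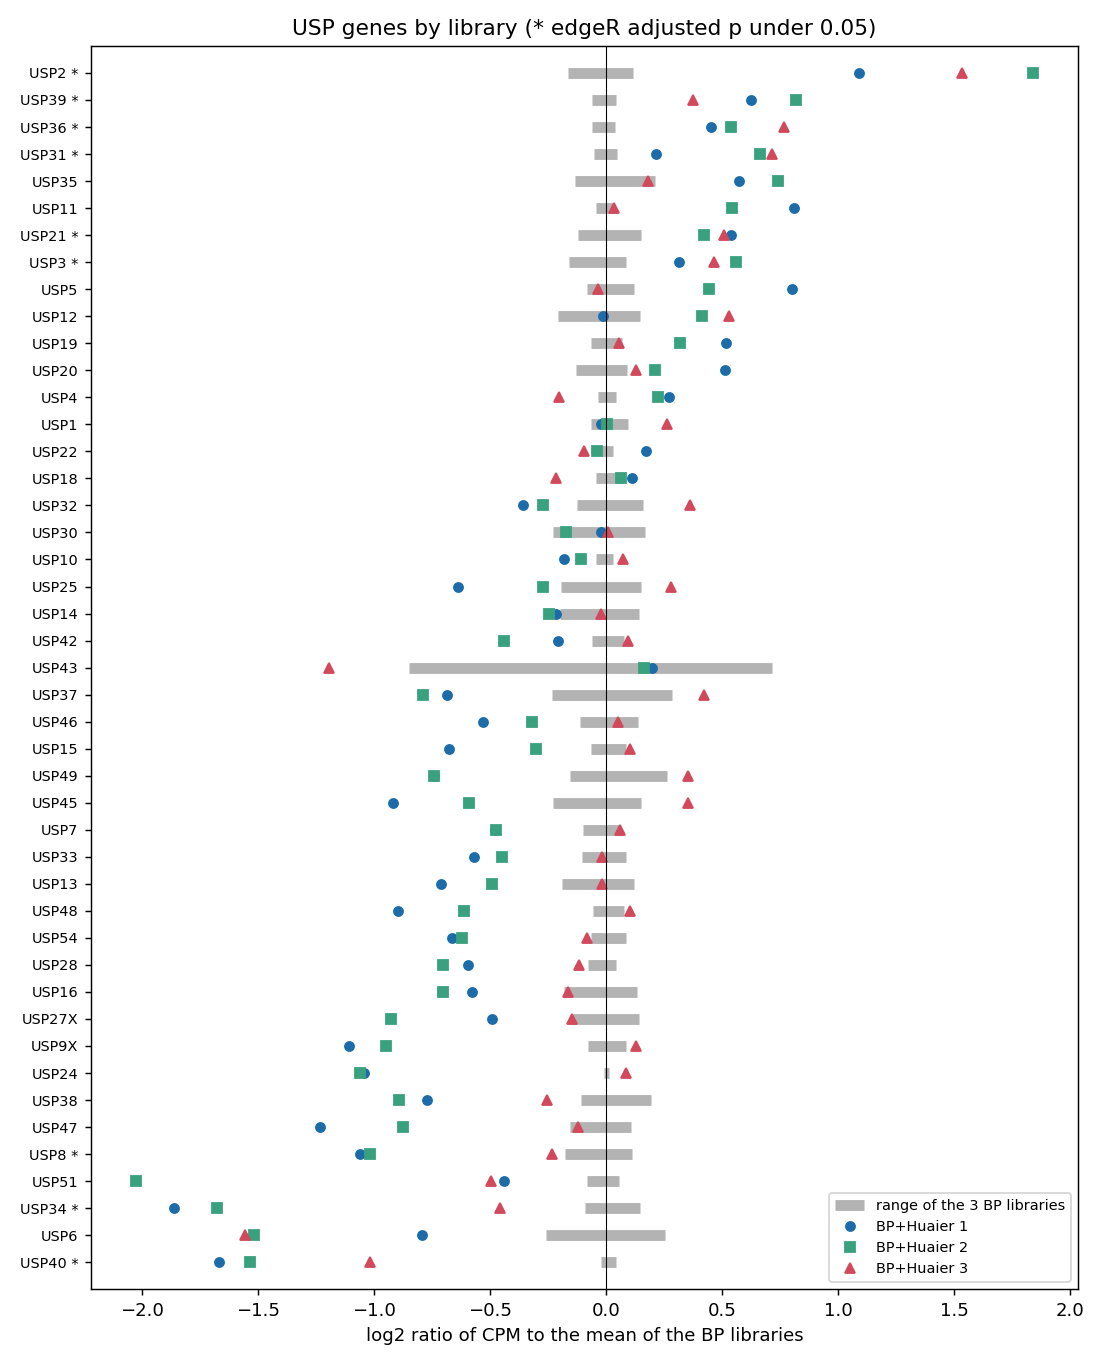
Each row is 1 of the 45 tested USP genes and the horizontal axis is the log2 ratio of its CPM to the mean of the BP libraries. Grey bars span the 3 BP libraries and symbols are the 3 BP+Huaier libraries, with an asterisk for genes past an edgeR adjusted p of 0.05. For many genes in the lower part, BP+Huaier 1 and 2 lie to the left of the grey bar and BP+Huaier 3 lies on or near it.

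USP40 had the largest fall among the called genes. It is a little-studied enzyme (ENSG00000085982.14, GRCh38 chr2:233475520-233566782, minus strand). Its levels were 71.1, 67.8 and 68.0 CPM in BP and 21.7, 23.8 and 34.0 CPM in BP+Huaier. All BP+Huaier libraries lay far below all BP libraries, and BP+Huaier 3 was the highest of its group. The mean went from 68.9 ± 1.84 to 26.5 ± 6.60 CPM (SD, n = 3 each), a log2 fold change of -1.38 ± 0.18 (SE) and a 2.60-fold lower level, with an edgeR adjusted p of 0.0019. The call held in all 14 refits made as alternatives.

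USP34, a very large enzyme known from Wnt signalling, where it stabilises axin, also fell (ENSG00000115464.15, chr2:61187463-61471087, minus strand). Its levels were 106, 123 and 104 CPM in BP and 30.5, 34.7 and 80.8 CPM in BP+Huaier. The groups did not overlap, but BP+Huaier 3 was closer to the BP libraries than to the other two of its group. The mean was 111 ± 10.3 CPM in BP and 48.7 ± 27.9 CPM in BP+Huaier (SD, n = 3 each), a 2.28-fold lower level with a log2 fold change of -1.19 ± 0.33 (SE) and an edgeR adjusted p of 0.027. Without BP+Huaier 3 the level was 3.38-fold lower, and the call was lost when any of the other five libraries was left out, with edgeR adjusted p-values of 0.051 to 0.12 (range over all alternatives 6.0e-09 to 0.12). Of its exon bases, 17.7% overlap AHSA2P on the opposite strand, which stood at 28.2 ± 3.58 and 22.3 ± 16.4 CPM, and whether counting used strand is not stated in the sources used here.

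USP8 acts on endosomes, where it removes ubiquitin from sorted receptors and from the sorting protein STAM, and it has also been described to act on Parkin (ENSG00000138592.14, chr15:50424380-50514421, plus strand). It stood at 40.0, 41.7 and 34.1 CPM in BP and at 18.5, 19.1 and 32.8 CPM in BP+Huaier. BP+Huaier 3 lay just below the lowest BP library. The fall was 1.64-fold, with a log2 fold change of -0.72 ± 0.23 (SE, n = 3 each) and an edgeR adjusted p of 0.044. Without BP+Huaier 3 it was 2.04-fold. The call was lost without any of the other five libraries, with edgeR adjusted p-values of 0.083 to 0.17 (range over all alternatives 1.5e-05 to 0.17), and also with library size scaling, the replicate block or the trend of GC content and length removed.

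USP2 had the largest rise but a low level. It is known as a clock-controlled gene and as an enzyme that stabilises cyclin D1 (ENSG00000036672.16, chr11:119355215-119381711, minus strand). Its levels were 1.81, 1.49 and 1.71 CPM in BP and 3.56, 5.98 and 4.84 CPM in BP+Huaier. Every BP+Huaier library was above every BP library. The rise was 2.86-fold, from 1.67 ± 0.165 to 4.80 ± 1.21 CPM (SD, n = 3 each), with a log2 fold change of 1.52 ± 0.26 (SE) and an edgeR adjusted p of 0.0047. It was called in all 13 alternatives in which it was tested.

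USP39 was the most abundant member that changed. It has lost catalytic activity and works in the spliceosome (ENSG00000168883.20, chr2:85602856-85649283, plus strand). It had 126, 136 and 134 CPM in BP and 203, 232 and 171 CPM in BP+Huaier, where BP+Huaier 3 was the lowest. It rose 1.53-fold, with a log2 fold change of 0.62 ± 0.15 (SE, n = 3 each) and an edgeR adjusted p of 0.016. Leaving out any BP library or BP+Huaier 2 ended the call, with edgeR adjusted p-values of 0.065 to 0.087 (range over all alternatives 1.8e-05 to 0.087).

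USP36 is a nucleolar enzyme that supports ribosome production and stabilises MYC (ENSG00000055483.19, chr17:78787381-78841441, minus strand). It had 80.5, 76.1 and 81.4 CPM in BP and 109, 115 and 135 CPM in BP+Huaier. Here BP+Huaier 3 was the highest library. It rose 1.51-fold, with a log2 fold change of 0.59 ± 0.14 (SE, n = 3 each) and an edgeR adjusted p of 0.013. The call was lost without BP 1 or BP 2 and with library size scaling, where the edgeR adjusted p-values were 0.068, 0.073 and 0.16.

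The remaining 3 rises were under 1.5-fold. USP31, a large and little-studied enzyme linked to NF-kB signalling (ENSG00000103404.15, chr16:23061406-23149452, minus strand), had 16.7, 17.1 and 16.0 CPM in BP and 19.3, 26.3 and 27.3 CPM in BP+Huaier. Its rise was 1.46-fold, with a log2 fold change of 0.55 ± 0.17 (SE, n = 3 each) and an edgeR adjusted p of 0.039. USP21, which acts on histone H2A and on regulators of innate immunity (ENSG00000143258.16, chr1:161159450-161165723, plus strand), had 38.6, 46.6 and 40.8 CPM in BP and 60.9, 56.2 and 59.7 CPM in BP+Huaier. In USP21 the 3 BP+Huaier libraries lay close together, with BP+Huaier 3 between the others. Its rise was 1.40-fold, with a log2 fold change of 0.49 ± 0.13 (SE, n = 3 each) and an edgeR adjusted p of 0.025. USP3, which also removes ubiquitin from histone H2A (ENSG00000140455.17, chr15:63504511-63594640, plus strand), went from 22.1 ± 2.03 to 30.2 ± 2.54 CPM (SD, n = 3 each), a 1.36-fold rise with an edgeR adjusted p of 0.046. All 3 lost the call when any BP library or BP+Huaier 2 was left out, with the replicate block, at 5 CPM or more, and with library size scaling, where the edgeR adjusted p was 0.31 for USP31, 0.27 for USP21 and 0.42 for USP3.

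**Figure D2:**
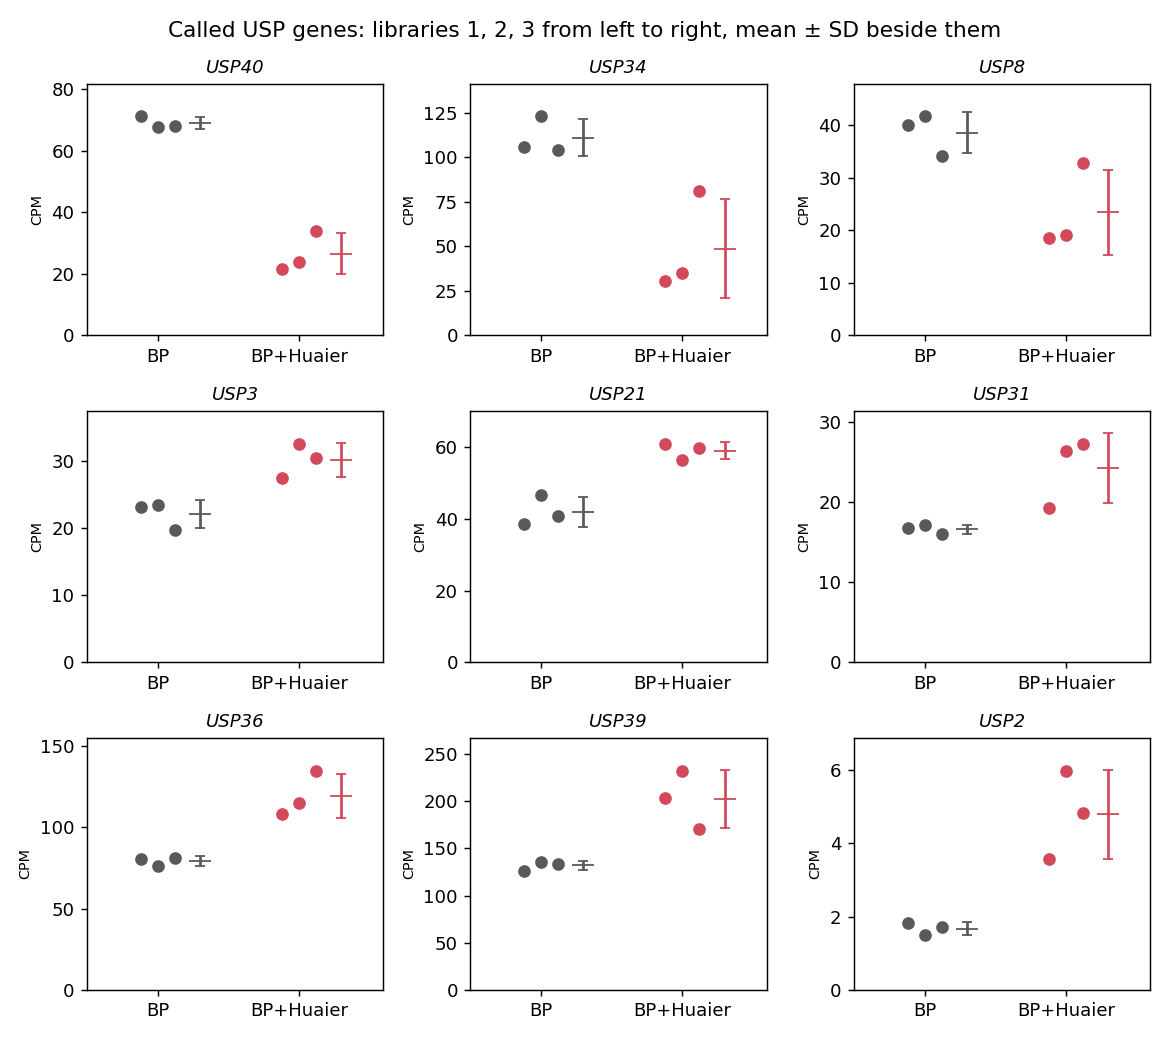
CPM on a linear axis from 0 for the 9 USP genes that changed, with libraries 1, 2 and 3 of each group as points from left to right and the mean ± SD beside them. In USP34 and USP8 the point of BP+Huaier 3 lies well above the other two of its group, while in USP40 all 3 lie far below BP.

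Sequences just upstream of the RefSeq start (RefSeq, GRCh38.p14) were available for 39 of the 51 genes, and they are shown for the pair with the largest falls among called genes and for the most abundant member that rose. Each is the 250 bases before the start, 5′ to 3′ on the strand of the gene, with capitals for the named motif on either strand. USP40 (chr2:233566783-233567032, minus strand) has TATAAA, searched as a TATA box, whose first base is at position -210 from the start. USP34 (chr2:61471088-61471337, minus strand) and USP39 (chr2:85602611-85602860, plus strand) have GGGCGG or its reverse complement CCGCCC, searched as an SP/KLF box.
USP40: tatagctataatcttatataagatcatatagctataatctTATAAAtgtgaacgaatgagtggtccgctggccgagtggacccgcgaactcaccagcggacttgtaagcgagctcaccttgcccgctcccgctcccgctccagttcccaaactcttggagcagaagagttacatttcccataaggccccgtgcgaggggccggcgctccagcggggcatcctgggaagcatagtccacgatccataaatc
USP34: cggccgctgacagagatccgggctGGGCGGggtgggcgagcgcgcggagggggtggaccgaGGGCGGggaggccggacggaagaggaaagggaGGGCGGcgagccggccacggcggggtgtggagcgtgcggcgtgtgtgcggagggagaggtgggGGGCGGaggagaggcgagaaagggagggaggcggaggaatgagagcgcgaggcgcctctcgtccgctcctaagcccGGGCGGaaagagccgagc
USP39: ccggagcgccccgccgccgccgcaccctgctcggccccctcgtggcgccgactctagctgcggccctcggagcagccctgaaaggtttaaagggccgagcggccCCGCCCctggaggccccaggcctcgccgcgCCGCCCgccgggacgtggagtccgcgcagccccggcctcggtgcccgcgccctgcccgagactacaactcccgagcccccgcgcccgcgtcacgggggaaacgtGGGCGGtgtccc
The window of USP39 shares 5 bases with the exons of the deposited gene. The USP34 window held 5 SP/KLF boxes, the USP39 window 3 and the USP40 window none.

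Promoters of the family were rich in GC. The median GC content of the 39 windows was 70.4%, against 58.0% over the 35116 promoters of the same length, and the median number of CpG pairs was 27 against 11. The 35116 were not limited to protein-coding or tested genes, so these differences cannot be taken as particular to the family. GGGCGG on either strand was in 30 of the 39 (76.9%) and in 42.6% of all promoters. It was in the windows of genes that rose (USP2, USP3, USP21, USP36, USP39) and of genes that fell (USP8, USP34). CCAAT was in 25.6% of USP windows and 32.0% of all promoters, and TATAAA in 5.13% and 10.7%. CACGTG, an E-box, was in 5.13% and 6.34%, and among the changed genes in USP36. TGACNNNGC, the antioxidant element, was in 10.3% and 10.9%, and among the changed genes in USP2. TGANTCA (AP-1) and the ISRE core were in none of the 39 and in 6.57% and 3.02% of all promoters. Across the 36 tested genes with a window, promoter GC content and log2 fold change had a Spearman correlation of 0.24, given as a description since both vary with base composition.

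Levels per kb of exon (CPM per kb) allow a rough comparison between genes. The divisor merges the exons of all annotated transcripts of a gene, which can be longer than the transcripts present in the cells. In BP the highest were USP5 at 75.6, USP22 at 52.3, USP11 at 36.2, USP39 at 33.4, USP10 at 27.3 and USP14 at 22.3 CPM per kb. In BP+Huaier USP5 was at 103, USP22 at 53.0, USP39 at 51.2 and USP11 at 51.1 CPM per kb, so USP39 and USP11 were nearly level. The lowest tested genes in BP were USP2 at 0.370, USP43 at 0.156 and USP6 at 0.073 CPM per kb. USP2 was at 1.06 CPM per kb in BP+Huaier.

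**Figure D3:**
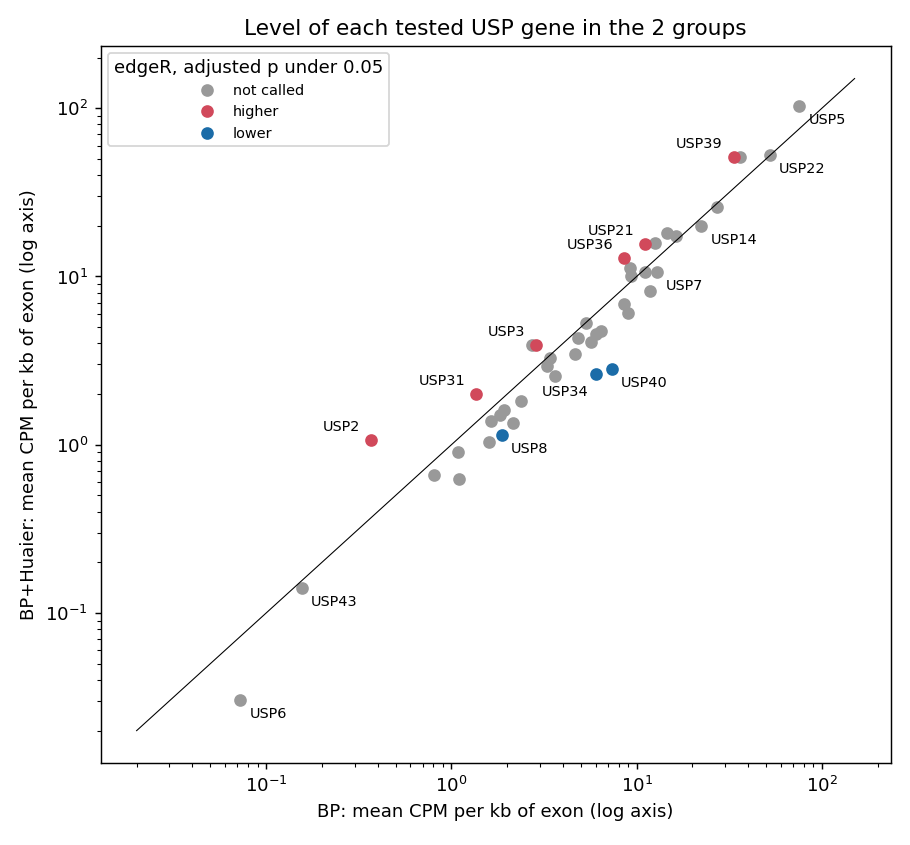
Mean CPM per kb of exon of the 45 tested USP genes in BP (horizontal) and BP+Huaier (vertical), both log axes, with a line of equal level. USP40, USP34 and USP8 lie below the line, USP2 lies farthest above it, and most points lie close to it.

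USP22, USP5, USP11, USP9X and USP10 were the most abundant genes that did not pass the test. USP22 had a mean of 355 ± 6.88 CPM in BP and 359 ± 36.0 CPM in BP+Huaier (SD, n = 3 each, edgeR adjusted p = 0.93). USP5, which takes apart free ubiquitin chains, had 273, 265 and 305 CPM in BP and 490, 382 and 274 CPM in BP+Huaier (edgeR adjusted p = 0.13). USP11, linked to repair by homologous recombination, had 179, 189 and 185 CPM in BP and 324, 268 and 189 CPM in BP+Huaier (edgeR adjusted p = 0.080). In both, BP+Huaier 1 and 2 were above all BP libraries and BP+Huaier 3 was within the BP range. USP9X, an enzyme of membrane traffic and cell polarity, had 166, 178 and 159 CPM in BP and 77.5, 86.6 and 183 CPM in BP+Huaier (edgeR adjusted p = 0.19). In USP9X, BP+Huaier 3 was the highest of all 6 libraries and BP+Huaier 1 and 2 were the lowest. Without BP+Huaier 3 the level was 2.02-fold lower (edgeR adjusted p = 2.0e-06). Leaving out any other library gave edgeR adjusted p-values of 0.29 to 0.49. With all libraries and a trend of GC content and length removed, the log2 fold change was -0.24 (edgeR adjusted p = 0.23). USP10, which acts on p53 and binds the stress granule protein G3BP1, was at 138 ± 3.83 and 132 ± 12.3 CPM (edgeR adjusted p = 0.71).

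USP14, USP7, USP18 and USP30 were also not called. USP14, which trims ubiquitin from proteins at the proteasome, was at 134 ± 15.7 and 120 ± 10.4 CPM (edgeR adjusted p = 0.42). USP7 had 116, 114 and 104 CPM in BP and 79.6, 79.9 and 116 CPM in BP+Huaier (edgeR adjusted p = 0.24), again with BP+Huaier 3 at the level of BP. USP18, which removes the ubiquitin-like ISG15 and is induced by interferon, was at 9.90 ± 0.432 and 9.85 ± 1.16 CPM (edgeR adjusted p = 0.97). It has a near-identical copy, USP41, so its counts could be affected by how multi-mapping reads were treated. USP30, an enzyme of the outer mitochondrial membrane that opposes Parkin-dependent mitophagy, was at 17.6 ± 2.41 and 16.9 ± 1.12 CPM (SD, n = 3 each), with an edgeR adjusted p of 0.80.

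In 7 genes that were not called the groups did not overlap. USP38, USP6, USP51, USP27X, USP28 and USP54 were lower in every BP+Huaier library, with log2 fold changes of -0.61, -1.24, -0.81, -0.48, -0.45 and -0.43 and edgeR adjusted p-values of 0.051, 0.054, 0.10, 0.12, 0.084 and 0.097. USP20 was higher in every BP+Huaier library, by 0.29 on the log2 scale (edgeR adjusted p = 0.16). USP6 shares long stretches with USP32 and its pseudogenes, so its counts are uncertain. At an unadjusted p under 0.05 in edgeR, 18 of the 45 genes passed (40%), against 43.3% of all tested genes.

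By known role the changes were spread out, with few genes in each group, beside 14.4% of all tested genes that rose and 15.0% that fell. Of 11 tested genes of chromatin and transcription 3 rose (USP3, USP21, USP36), none fell, and the median log2 fold change was -0.27. Of 9 in DNA repair, cell cycle and splicing, USP39 rose and the median was 0.09. Of 9 at endosomes, membranes and organelles, USP2 rose and USP8 fell, with a median of -0.32. Of 7 in the proteasome, stress and autophagy, USP34 fell and the median was -0.16. Of 7 in immune and kinase signalling, USP31 rose and the median was -0.16. USP40 and USP45 were left as less studied.

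Ratios between closely related genes differed between the groups in some pairs. For USP36 and USP42 the log2 ratio of the CPM of the first to the second was 1.26, 1.08 and 1.32 in BP and 1.88, 2.20 and 1.89 in BP+Huaier. For USP35 and USP38 it was -0.12, -0.38 and 0.23 in BP and 1.26, 1.54 and 0.35 in BP+Huaier. For USP12 and USP46, both partners of WDR48, it was 2.06, 1.92 and 1.74 in BP and 2.43, 2.64 and 2.38 in BP+Huaier. These 3 pairs were chosen after their values were seen, among 18 pairs of related genes, of which 9 had ratios that did not overlap between the groups and 9, such as USP5 and USP13 or USP25 and USP28, had ratios that did. The difference within a pair was not tested, and no share over other gene pairs was computed. Members of a pair can also differ in exon length and GC content, as USP35 (5754 bases, 61.3%) and USP38 (10500 bases, 40.1%) do. With a trend of both removed, USP35 and USP38 had log2 fold changes of 0.15 and -0.33, against 0.51 and -0.61 before. USP36 and USP42 had 0.46 and -0.23 (0.59 and -0.17 before), and USP12 and USP46 had 0.50 and -0.01 (0.33 and -0.25 before). USP9X and USP24 kept nearly the same log2 ratio, at 0.62, 0.70 and 0.55 in BP and 0.56, 0.74 and 0.67 in BP+Huaier, in libraries where both levels moved.

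Across the family BP+Huaier 3 differed from the other two of its group. For the 45 genes the median log2 ratio to the BP mean was -0.44, -0.30 and 0.05 in the BP+Huaier libraries 1, 2 and 3, and between -0.06 and 0.08 in the BP libraries. Over all tested genes the median was -0.07, -0.05 and -0.02 in the BP+Huaier libraries. For 27 of the 45 genes (60%) BP+Huaier 1 and 2 were both below every BP library, against 39.0% of all tested genes. In these, BP+Huaier 3 was also below BP in 9, within the BP range in 6 and above it in 12. With this library left out, none of the 9 called genes lost its call.

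**Figure D4:**
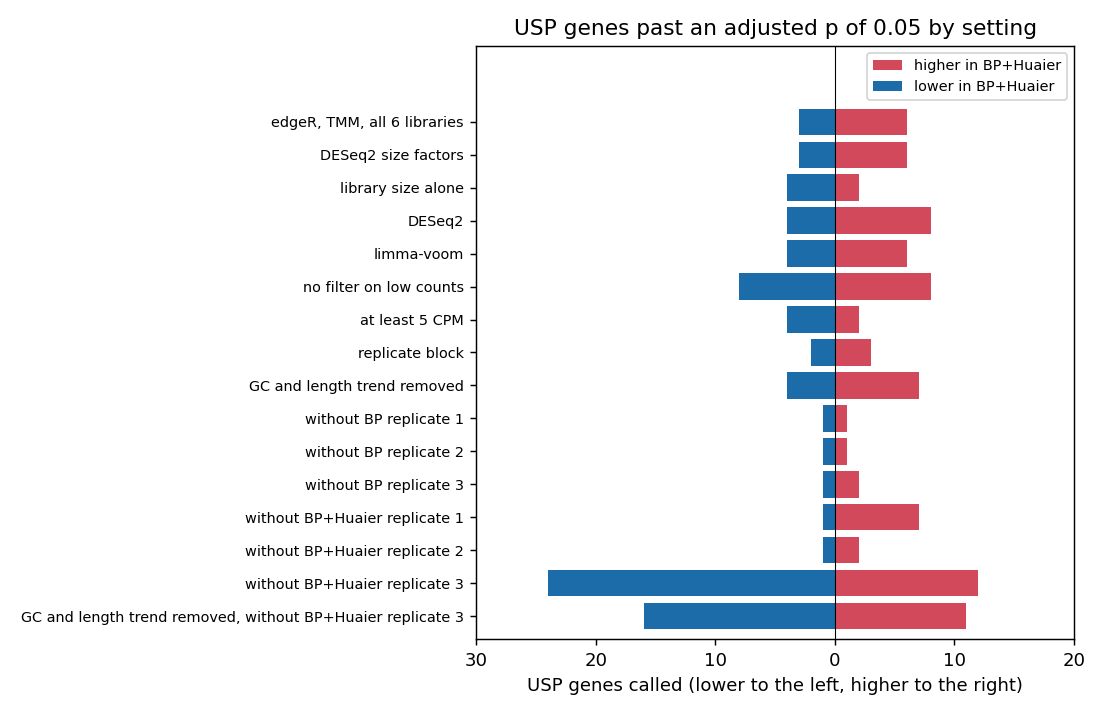
Number of USP genes past an adjusted p of 0.05 in each setting, lower in BP+Huaier to the left of 0 and higher to the right. The bars are 3 and 6 with all libraries and 24 and 12 without BP+Huaier 3.

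In BP+Huaier 1 and 2 the values also went with the summed exon length of the gene, which merges the exons of all its annotated transcripts. USP genes were long, with a median of 7328 summed exon bases against 5279 over tested protein-coding genes, and low in GC, at 45.4% against 49.3%. In the 15 longest (9355 to 20641 bases) the median log2 ratio was -0.79, -0.88 and -0.02 in the BP+Huaier libraries 1, 2 and 3. In the 15 shortest (1858 to 5694 bases) it was 0.11, 0.16 and 0.03. All 3 genes that fell were among the longest, and of the 6 that rose 3 were among the shortest, 2 in the middle and 1 among the longest. Across the 45 genes the Spearman correlation of exon length with the log2 ratio was -0.71, -0.51 and -0.05 in BP+Huaier 1, 2 and 3, and over the 12459 protein-coding genes it was -0.33, -0.27 and 0.02. With GC content it was 0.64, 0.49 and 0.00 across the 45, and 0.51, 0.37 and 0.05 over the 12459 protein-coding genes. These are descriptions over genes that share libraries, and length and GC themselves had a correlation of -0.41 among the 45.

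Removing a smooth trend of GC content and exon length from each library brought the median log2 fold change of the family to -0.06. With it, edgeR called 11 of the 45 genes (7 higher, 4 lower), where 38.1% of all tested genes were called, 18.2% higher and 19.8% lower. USP12 was added to the rises and USP28 and USP54 to the falls, while USP8 lost its call (edgeR adjusted p = 0.061 at a log2 fold change of -0.29). USP40 kept its size, at a log2 fold change of -1.33, and USP34 had -0.84. The part of RNA quality or library preparation in this pattern was not tested.

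**Figure D5:**
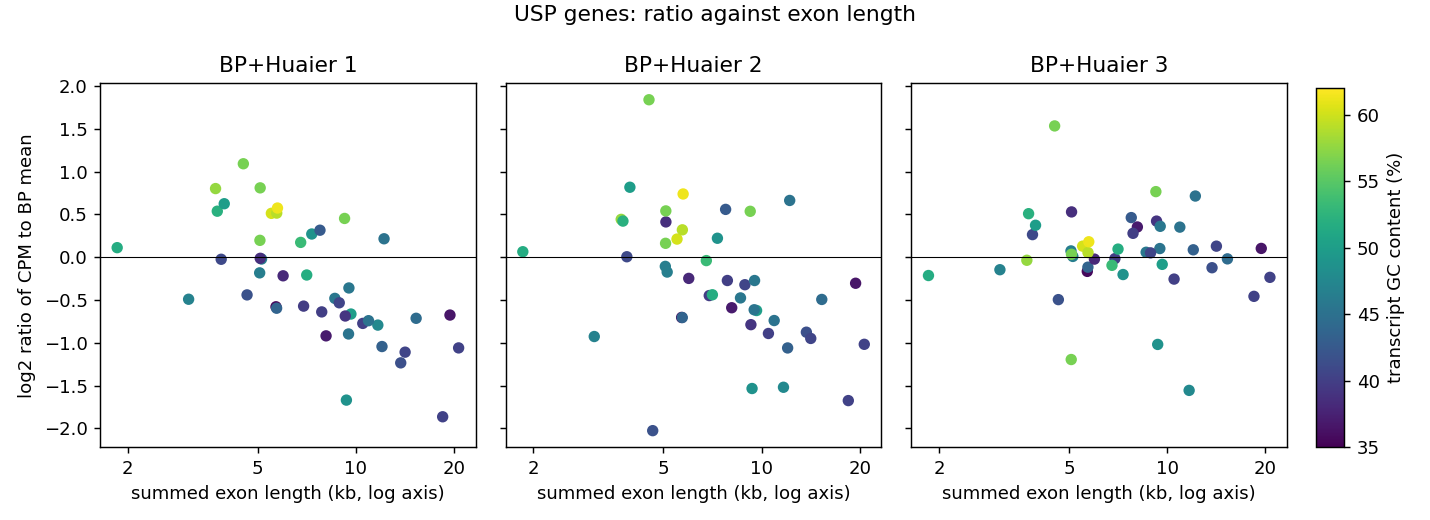
Log2 ratio of CPM to the BP mean (vertical) against summed exon length in kb (horizontal, log axis) for the 45 tested USP genes in each BP+Huaier library, coloured by GC content of the longest transcript. Values go down with length in BP+Huaier 1 and 2 and not in BP+Huaier 3.

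The other 6 members did not enter the test. USP26, USP29, USP41 and USP44 had 0 counts in every library. For USP26, USP29 and USP44 this allows up to 0.160 to 0.222 CPM by counting error, and for USP41 no limit is given, since reads shared with USP18 may not have been counted. USP53 had 10, 7 and 6 counts in BP and 6, 6 and 10 in BP+Huaier. USP50 had 7, 11 and 3 counts in BP and 0, 7 and 17 in BP+Huaier, and 34.4% of its exon bases overlap USP8 on the opposite strand.

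The rest of the ubiquitin system was followed through 5 lists with 115 tested genes, of which 23 rose (20%, against 14.4% of all tested genes) and 9 fell (7.83%, against 15.0%). Without BP+Huaier 3 these counts were 38 and 35 of 116 (32.8% and 30.2%, against 28.8% and 31.0%). Of the 6 ubiquitin and E1 genes 2 rose (33.3%) and none fell, and without BP+Huaier 3 it was 4 and 1 (66.7% and 16.7%). UBB, a stress-responsive source of ubiquitin, went from 388 ± 14.3 to 671 ± 189 CPM (SD, n = 3 each), a 1.73-fold rise with an edgeR adjusted p of 0.023. Of 34 E2 enzymes 12 rose (35.3%) and 2 fell (5.88%), with a median log2 fold change of 0.08, and without BP+Huaier 3 it was 14 (41.2%) and 7 (20.6%). Those with the largest change were UBE2S and UBE2C, the pair that serves the anaphase-promoting complex, which rose 2.76-fold and 2.66-fold, and BIRC6, a giant inhibitor of apoptosis and autophagy, which fell 2.14-fold.

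Of 40 tested deubiquitinases of other families 4 rose and 4 fell (10% each, against 14.4% and 15.0% of all tested genes). Without BP+Huaier 3, 13 rose and 12 fell (32.5% and 30%), where 28.8% and 31.0% of all tested genes did. OTUD1 rose 2.38-fold, from 7.83 ± 1.05 to 18.6 ± 1.73 CPM (SD, n = 3 each). YOD1 rose 2.28-fold, with 9.71, 18.5 and 32.8 CPM in the BP+Huaier libraries against 8.09 to 10.3 CPM in BP. BRCC3, the subunit of the BRCA1-A complex that cuts K63-linked chains, fell 2.25-fold, from 22.3 ± 1.01 to 9.87 ± 2.98 CPM. Of 31 partners of USP enzymes 5 rose (16.1%) and 2 fell (6.45%), and without BP+Huaier 3 it was 6 and 12 (19.4% and 38.7%). The largest changes were rises of DAXX, a partner of USP7 (1.79-fold), PTPN23, which works with USP8 on endosomes (1.76-fold), and ATXN7L3, which activates USP22 in the SAGA complex (1.62-fold). Of the 7 genes of the ISG15 cycle, UBA7, its E1 enzyme, fell 2.42-fold and TRIM25 fell 1.33-fold (28.6% of the list, against 15.0%), and none rose. Without BP+Huaier 3 it was 4 lower (57.1%) and 2 higher (28.6%).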

How the data were processed

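Per the labels' protocols, TRIzol RNA of 6 libraries went through NEBNext Ultra preparation and NovaSeq sequencing with paired reads of 150 bp. The submitters' processing notes name GRCh38 and the tools fastp 0.20.0, HISAT2 2.1.0 and featureCounts 1.6.1. Neither the annotation release nor the strand and multi-mapping settings are stated in those sources. The authors deposited raw counts per gene, as whole numbers with a different total in each library. Columns were mapped to samples by title.

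The table had 60651 lines. The lines of ANK2, broken into 3 pieces, and 44 second copies of pseudoautosomal genes with 0 counts were left out. Symbols matched 99.77% of the IDs. GENCODE release 29, with 58336 of the genes, gave biotypes and GC content (longest transcript), and RefSeq gave promoters.

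The test used edgeR 4.0.16 (R 4.3.3): filterByExpr by group, TMM, a robust quasi-likelihood fit whose design held the group alone, and Benjamini-Hochberg adjustment over all 15022 tested genes. The common biological coefficient of variation was 18.1%. The SE of a log2 fold change is that implied by the test. Replicate libraries differed by more than counting error, by 3.76 to 10.1 times its variance in BP and 17.6 to 78.8 times in BP+Huaier. Each was counted as 1 replicate, though this excess does not show that they are separate cultures. The fits were tested on simulated data.

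Alternatives were DESeq2 size factors, library size alone, DESeq2 1.42.0, limma-voom (limma 3.58.1), an unfiltered table, a minimum mean of 5 CPM, a replicate block, removal of a GC and length trend (splines with 5 degrees of freedom each), an adjusted p under 0.01 and leaving out each library. The trend removal without BP+Huaier 3 was chosen after seeing the data. The members, gene lists, roles and motifs were chosen with earlier results of these data known. The rule for named genes took every called member, the 5 most abundant members not called, those whose groups did not overlap, USP7, USP8, USP14, USP18, USP22, USP30 and USP36, and from each other list the 3 most changed among the called genes above 5 CPM. Of the genes the rule names, 1 is not reported here, though it enters the counts. Other genes were named after their values were seen.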

Additional observations from a re-analysis of the deposited data

How the results depend on the processing

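With 9 USP genes called, 6 higher and 3 lower, DESeq2 size factors, DESeq2 and limma-voom gave 9, 12 and 10 calls among the 45. Of all tested genes, these settings called 15.22%, 18.37% and 14.05% higher and 14.27%, 16.2% and 16.69% lower. Without a filter on low counts 16 of 47 were called (8 lower), where 9.09% of 31218 genes were higher and 9.63% lower. All calls were then 2839 higher and 3006 lower, against 2160 and 2246 of 15022 genes with the filter. The 31218 include many genes of few counts, and nearly all of the 47 pass the filter. The shares of the USP genes and of all genes are therefore not comparable in this setting. At an adjusted p under 0.01, 2 were called, 1 higher and 1 lower, and no share over all tested genes is given for this threshold. Requiring at least 5 CPM left 41 USP genes, of which 2 were higher and 4 lower, where 14.3% and 12.9% of 10600 genes were. USP2, at a mean of 3.23 CPM, was not tested in this setting. Scaling by library size alone left 2 higher and 4 lower and moved the USP median from -0.17 to -0.45, while the median of all genes moved from -0.02 to -0.28 and all calls went from 2160 higher and 2246 lower to 1051 and 2959. Under it 15 list genes were higher in place of 23. Leaving out each library in turn gave 2 to 36 USP calls, 1 to 12 higher and 1 to 24 lower, and 6 to 38 higher and 2 to 35 lower list genes. The low ends came without a BP library or BP+Huaier 2 (for USP falls also BP+Huaier 1), and the high ends without BP+Huaier 3. Calls over all tested genes moved too, from 5.27% higher and 5.92% lower without BP 1 to 28.8% and 31.0% without BP+Huaier 3. With the trend removed and without BP+Huaier 3, a setting chosen after seeing the data, 27 USP genes were called (11 higher, 16 lower, where 28.8% and 31.3% of all genes were), and of the list genes 51 were higher and 26 lower. At an adjusted p under 0.01, 7 list genes were higher and 2 lower. No USP gene changed direction while past the threshold in any setting run. The cause of these changes was not tested.

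The labels state no pairing by replicate number. Deviations from the group mean had correlations of 0.01, -0.05 and -0.26 between libraries with the same number, and no library correlated best with its own number. These values cannot exclude a pairing, since each group has 3 libraries and BP+Huaier 3, which stood apart, weighs on the deviations of its group. The replicate block gave 5 USP calls (3 higher, 2 lower) and 14 higher list genes, where 9.03% of all tested genes were higher and 11.6% lower. Counts near the floor limit USP6, USP43, USP50 and USP53.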

Other observations

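Among the E2 conjugating enzymes, further rises stood beside UBE2S and UBE2C, and these genes were chosen after their values were seen. UBE2T, the E2 of the Fanconi anaemia pathway, rose 2.01-fold, from 19.6 ± 1.11 to 39.4 ± 3.67 CPM (SD, n = 3 each), with an edgeR adjusted p of 0.0022. CDC34, the E2 of the SCF ligases, had 123, 114 and 143 CPM in BP and 355, 280 and 162 CPM in BP+Huaier and rose by 1.07 on the log2 scale. UBE2M, an E2 enzyme of the ubiquitin-like NEDD8, rose 1.87-fold. In each of these 3 genes BP+Huaier 3 was the lowest library of its group and still above every BP library. In BIRC6 the BP+Huaier libraries had 38.4, 45.2 and 113.6 CPM against 137 to 147 CPM in BP, and BP+Huaier 3 was the nearest to BP, as in USP34.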
